A study of Mus musculus with 7 samples.

Results

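The mRNAs of 10 glycolytic enzymes were followed in E14 cells, a mouse embryonic stem cell (ESC) line of strain 129/Ola grown with LIF, in data from CIRS-seq, a method that reads RNA structure from the places where reverse transcriptase (RT) stops. The 10 symbols were Hk2, Gpi1, Pfkl, Aldoa, Tpi1, Gapdh, Pgk1, Pgam1, Eno1 and Ldha, chosen by name, and none was absent. They accounted for 57 of the 26827 transcripts listed and for 10 of 13218 genes. Cell lysates, in which proteins had been digested with proteinase K, were treated with dimethyl sulfate (DMS), which methylates accessible A and C, or with the carbodiimide CMCT, which modifies accessible U and G. A DMS library pooled aliquots treated with 50 to 200 mM, a CMCT library pooled aliquots treated with 10 to 50 mM, and a not treated (NT) library pooled the 0 mM aliquots of both. Each of the 3 treatments had 2 biological replicates, and 1 ribosomal RNA-depleted RNA-seq library came from untreated cells of the same line.

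Glycolysis breaks glucose down to pyruvate and yields ATP and NADH. Its first steps spend ATP to make a sugar with a phosphate at each end, and its later steps recover ATP from the trioses that this sugar gives. Rapidly dividing cells, ESCs among them, are known for a high flux through the pathway, with part of the pyruvate turned into lactate, and its mRNAs are among the abundant mRNAs of many cells. Several of these genes, Gapdh above all, have many processed pseudogenes, intronless copies that keep most of the mRNA's sequence, so a short read from the mRNA can have more than 1 place in the genome.

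For bases and regions 1 transcript per gene was used, the one with the longest coding region. These ran from 1420 nt in Gapdh (chromosome 6, 1002 nt of coding region) to 5513 nt in Hk2 (chromosome 6, 2754 nt of coding region and 2285 nt of 3′ UTR). Of the others, Tpi1 is on chromosome 6, Aldoa, Ldha and Gpi1 on 7, Eno1 on 4, Pfkl on 10, Pgam1 on 19 and Pgk1 on X.

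The bases at which the reagents raised RT stops are shown with 10 bases on each side, since they carry the base preference described below. For each reagent the position with the greatest excess over NT, in stops scaled to the library total, was taken in 1 transcript per gene, as the lower treated replicate minus the higher NT replicate. The sequences are from mm9, run 5′ to 3′ on the mRNA strand with T for U, and have the stopped base in capitals. Every such position whose 21 bases lie within 1 exon and in the annotated coding region of the transcript used is shown, 5 for DMS and 8 for CMCT. Those for DMS have an A or, in Eno1, a C as the stopped base.
Gapdh, DMS (chr6:125112629-125112649, minus strand): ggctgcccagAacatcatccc
Aldoa, DMS (chr7:133940241-133940261, minus strand): gggctgtctgAacgctgtgcc
Tpi1, DMS (chr6:124764131-124764151, minus strand): agcctggtacAatggcgccta
Gpi1, DMS (chr7:35014324-35014344, minus strand): gaaccttgtgAacaaggaggt
Eno1, DMS (chr4:149621605-149621625, plus strand): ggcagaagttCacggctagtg

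Those for CMCT have a U or, in Hk2, a C as the stopped base, and an A as the base that follows.
Gapdh, CMCT (chr6:125113329-125113349, minus strand): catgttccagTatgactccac
Aldoa, CMCT (chr7:133941247-133941267, minus strand): gccccacccaTacccagcact
Pgk1, CMCT (chrX:103395632-103395652, plus strand): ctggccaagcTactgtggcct
Pgam1, CMCT (chr19:41986603-41986623, plus strand): cagcggctggTacgacgccga
Eno1, CMCT (chr4:149622202-149622222, plus strand): cctggccaagTacaatcagat
Tpi1, CMCT (chr6:124764161-124764181, minus strand): cgtgcgtttgTactgaccttc
Gpi1, CMCT (chr7:34992626-34992646, minus strand): ctttgctgccTatttccagca
Hk2, CMCT (chr6:82688422-82688442, minus strand): tgtggccacgCaccgaatctg

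Library totals, with each genomic position counted once per gene, ran from 140186204 to 247369982 RT stops, and the 10 mRNAs held 0.0541% to 0.112% of them. These totals exceed the number of reads that the paper gives for a treatment, so a read can be counted more than once. In the RNA-seq library the 10 ESC markers had a median of 66.9 RPKM (alignments scaled to exon length and to all alignments counted). Their lowest value was 5.34, in Utf1. The 5 fibroblast markers had a median of 0.0547 and a highest value of 5.82, in Pdgfra, which lay above Utf1. The 5 markers of differentiated germ layers had a median of 1.02 and a highest value of 4.35, in Gata6. The libraries are bulk, so fewer cells of a type and less RNA per cell cannot be told apart. The p-values below measure the spread between 2 libraries per treatment.

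With all positions counted, the enzymes of the later steps carried more RT stops per exonic base than most of those of the first steps. Gapdh, the enzyme that oxidizes glyceraldehyde 3-phosphate and makes NADH, had 24.0 and 12.5 stops per base in the 2 NT libraries, 30.5 and 22.9 in the DMS libraries and 31.8 and 18.6 in the CMCT libraries. It ranked first of the 10 in every library and held 31.1% to 35.9% of their stops.

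Aldoa, which splits the sugar into trioses, had 5.80 and 3.37 stops per base in NT, 7.56 and 6.24 in DMS and 8.28 and 4.77 in CMCT. Pgam1, which moves the phosphate group on phosphoglycerate, had 6.29 and 4.10, 7.04 and 5.57, and 8.63 and 5.92 in the same order. Eno1, the enolase that forms phosphoenolpyruvate, had 5.34 and 3.12, 6.15 and 4.69, and 8.71 and 5.45. These 3 overlapped one another, and replicate 2 was the lower of the pair in every treatment. The exons of all isoforms were counted, 5379 bases in Eno1, 2754 in Aldoa and 1831 in Pgam1, and the overlap depends on this length. In the coding region of the transcript used, Eno1 was highest of the 3 in every library. It had 14.2 and 7.94 stops per base there in NT, against 8.95 and 4.87 in Aldoa and 6.58 and 4.18 in Pgam1.

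Pgk1, which makes ATP from bisphosphoglycerate, had 2.42 to 7.66 stops per base over the 6 libraries. Ldha, which reduces pyruvate to lactate, had 2.58 to 6.89, and Tpi1, which interconverts the trioses, had 1.84 to 4.03. Gpi1, the isomerase of glucose 6-phosphate, Hk2, the hexokinase that phosphorylates glucose, and Pfkl, the liver-type subunit of phosphofructokinase, lay lowest, from 0.483 to 1.60. The median of all 7034 genes with a protein-coding transcript was 0.655 to 1.09 per library, and 7 of the 10 mRNAs had at least 1 stop per base in every library. This too depends on the exons counted, 4497 bases in Gpi1, whose transcript used has 2037. In the coding region of that transcript Gpi1 had 2.03 and 1.06 stops per base in NT.

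The order changed at positions found once in the genome, and it depended on which exons were counted. A position was found once if its next 25 bases occur once in mm9 and lie within 1 exon. Over all exons of the gene, Gapdh had 942 such positions with 1.09 and 0.874 stops per base in NT, and Pgk1 had 0.784 and 0.689, against 2.21 and 1.42 for Tpi1 and 1.01 and 0.549 for Pfkl. In the 1 transcript used for bases and regions, Gapdh had 191 such positions with 3.21 and 2.54 in NT, and Pgk1 had 3.52 and 3.11, against 3.49 and 2.37 for Tpi1 and 1.16 and 0.614 for Pfkl. Gapdh was not first in any library on either count. Most of those 191 positions of Gapdh lay in its 5′ UTR, much of which held few stops.

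**Figure D1:**
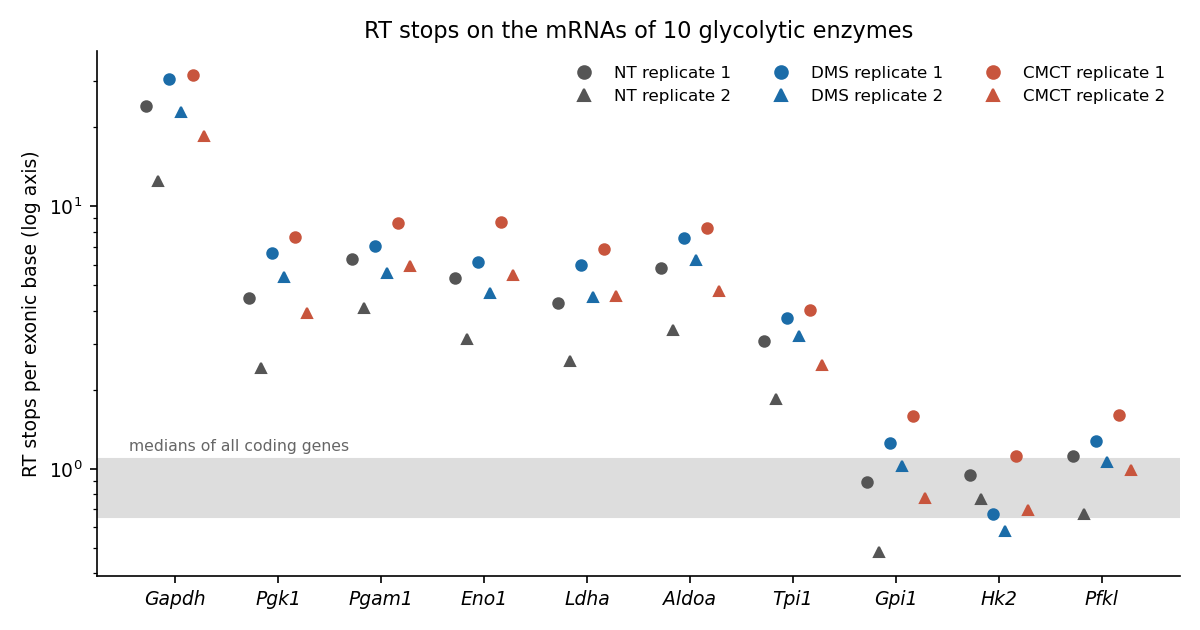
RT stops per exonic base (log axis) of each mRNA, with 1 point per library, circles for replicate 1 and triangles for replicate 2; the grey band spans the medians of all coding genes in the 6 libraries. Gapdh lies highest in all 6 libraries, and Gpi1, Hk2 and Pfkl lie in or near the band.

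Few of the mRNAs differed in their number of RT stops between treatments. By edgeR's quasi-likelihood test over 13216 genes, 1 of the 10 mRNAs passed an adjusted p of 0.05 in DMS against NT, where 26.4% of all genes passed and 12.5% passed with fewer stops. None passed in CMCT against NT, where 29.0% of all genes passed (5187 at an unadjusted p under 0.05), while DESeq2 called 1 of the 10 there, Hk2. The exception was Hk2, with 5315 and 4301 stops in NT, 3762 and 3240 in DMS and 6280 and 3926 in CMCT. Its DMS counts lay below both NT counts, and its share of the library fell by 0.91 ± 0.27 (SE) on the log2 scale (n = 2 libraries per treatment, edgeR adjusted p = 0.0255). The call was lost when any 1 of the NT or DMS libraries was left out, with adjusted p up to 0.0975, although the log2 difference stayed at -0.86 or below. The other 9 differed by -0.16 to 0.38 in DMS, and all 10 by -0.45 to 0.24 in CMCT.

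Many of the stops of Hk2 lay at repeated sequence in its 3′ UTR. In the transcript used, 4986 of the positions were found once, and they carried 0.418 and 0.233 stops per base in the NT libraries. The 42 positions found more than 20 times, all in the 3′ UTR between positions 3599 and 5227, carried 67.8 and 67.6. At position 3859, an A whose following bases occur 60 times in the genome, the counts were 1005 and 1004 in NT, 381 and 380 in DMS and 353 and 352 in CMCT. The neighbouring U at position 3860 had 715 and 716, 271 and 271, and 232 and 233.

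Positions at which replicates differ by at most 1 at 50 or more stops held 56.5% of the NT stops of Hk2, 34.9% of its DMS stops and 21.8% of its CMCT stops. For the other 9 mRNAs these shares were 0% to 6.42%. At positions found once, Hk2 had a log2 difference of -0.37 ± 0.20 (SE) in DMS (edgeR adjusted p = 0.243) and of 0.35 ± 0.20 in CMCT (adjusted p = 0.300). Without the near-equal positions its difference in DMS was -0.34 (adjusted p = 0.382). The call was not tested without the 42 repeated positions alone, and why these replicate counts are so alike was not tested.

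Positions found once also gave calls that all positions did not. Pgam1, with 97 such positions, had 638 and 402 stops there in NT, 223 and 202 in DMS and 402 and 159 in CMCT. Its share fell by 1.68 ± 0.26 (SE) in DMS (edgeR adjusted p = 0.0197) and by 1.60 ± 0.26 in CMCT (adjusted p = 0.0254). Pgk1 fell by 1.19 ± 0.23 in CMCT (adjusted p = 0.0410). With these positions, 2.71% of all genes fell in DMS and 1.20% in CMCT. The same counts contain a position in the 5′ UTR of Pgam1, found once, that held 566 and 365 of the NT stops and is described below.

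The 10 mRNAs differed widely in how much of their sequence is repeated elsewhere. Only 5.37% of the positions of Pgam1, 5.56% of Pgk1, 13.7% of Gapdh and 19.3% of Eno1 were found once, against 90.9% of Hk2 and 83.8% of Pfkl, with Aldoa, Ldha, Gpi1 and Tpi1 between 35.7% and 46.5%. The rest is not all repeated, since it includes positions whose next bases cross an exon junction. These were 3.99% of the positions of Pgam1, 7.43% of Hk2, 13.6% of Pfkl and 20.3% of Gpi1. The median Gapdh position occurred 69 times and the most repeated 151 times. Positions of Gapdh found more than 20 times held 79.3% to 84.3% of its stops, at 21.1 to 57.8 per base, against 2.54 to 4.68 per base at the 191 positions of its transcript found once. A stop count on Gapdh therefore rests on sequence that the genome holds many times over. The rule by which reads with several places were counted is not given in the sources used here. Most of the 191 positions lay in the 5′ UTR, since the coding region and the 3′ UTR each held fewer than 20. Before position 167 of that 5′ UTR lay 0.193 and 0.205 stops per base in NT, and after it 22.8 and 15.9. The contrast per base thus also sets 5′ UTR against coding region.

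The base to which stops were assigned changed strongly with DMS. In the share of stops at A and C, 9 of the 10 mRNAs rose in DMS against NT and 1 did not pass (limma on the log2 odds, 6838 genes, of which 72.1% rose), so the 9 of 10 stand near the share of all genes. In Tpi1 the share was 45.2% and 39.1% in NT, 64.7% and 66.0% in DMS and 41.0% and 42.4% in CMCT. In Gapdh it was 59.8% and 50.6%, 72.7% and 75.6%, and 54.2% and 51.1%. In both genes the DMS libraries lay above all others. Counted 1 base downstream, the share passed in 221 of 6838 genes and in 0 of the 10.

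The log2 odds rose most in Tpi1, by 1.38 ± 0.16 (SE, n = 2 libraries per treatment, limma adjusted p = 0.00667), and least among those that passed in Gpi1, by 0.99 ± 0.17 (adjusted p = 0.00769). The median of the 10 was 1.14 and that of all genes 0.98. In Hk2 the share was 52.0% and 50.9% in NT and 55.8% and 56.9% in DMS. Its DMS libraries were the higher, by 0.29 ± 0.12, but it missed the threshold (adjusted p = 0.0762). At positions found once Hk2 rose by 1.01 ± 0.24 (adjusted p = 0.00196), where 82.6% of 5063 genes rose. Without the near-equal positions all 10 rose, as did 75.9% of all genes.

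At positions found once it was Gapdh that did not pass, at 0.33 ± 0.40 (limma adjusted p = 0.465), with 9 of 10 again rising. Its share at A and C there was 47.0% and 35.1% in NT and 55.0% and 38.3% in DMS. Of the 191 such bases of the Gapdh transcript, 17.8% were A, and most lay in the 5′ UTR, much of which held few stops. Why Gapdh did not pass was not tested. Leaving out DMS replicate 2 ended the call of Pfkl (1.00, adjusted p = 0.0621).

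**Figure D2:**
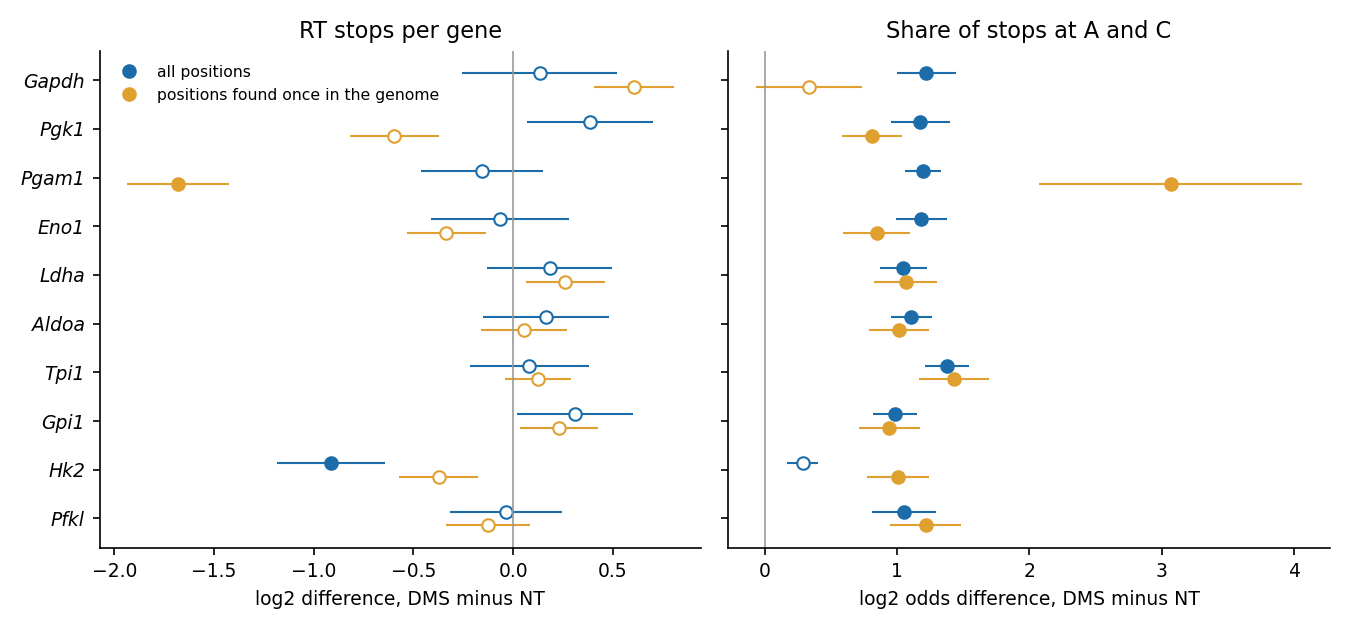
Differences between DMS and NT for each mRNA, on the left in RT stops per gene and on the right in the log2 odds of a stop at A or C, with standard errors; filled points passed an adjusted p of 0.05, blue points use all positions and yellow points those found once in the genome. The points on the right lie above 0 for all 10 mRNAs, and on the left Hk2 is filled with all positions and Pgam1 with positions found once.

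Stops at A took a larger share with DMS than without. They made up 9.26% to 26.6% of a transcript's stops in NT replicate 1 and 9.02% to 31.2% in NT replicate 2, with medians of 10.7% and 12.8%. In the DMS libraries they made up 28.3% to 33.5% and 37.1% to 44.6%, with medians of 31.3% and 39.1%. The highest NT values, 26.6% and 31.2%, were those of Hk2, which include the A at position 3859. Without Hk2 the highest NT value was 18.6%, in Pfkl. At C the median shares were 39.8% and 33.1% without treatment, and 35.0% and 29.5% with DMS. A higher share at A lowers the others, and among stops that were not at A the median share of C was 46.0% and 38.2% in NT and 50.6% and 49.3% in DMS. Both DMS libraries lay above both NT libraries there in 9 of 10 mRNAs, all but Hk2.

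With A alone against the other bases, 9 of 10 rose, by 1.40 to 2.38 on the log2 odds scale (74.6% of all genes), and Hk2 had 0.33 (limma adjusted p = 0.323). With CMCT the share at U had medians of 40.1% and 39.5%, against 30.0% and 34.2% in NT and 21.8% and 17.8% in DMS. None of the 10 passed the limma test of A, C and G against U in CMCT, in which 0.307% of all genes passed. The 10 log2 odds of A, C and G lay from -0.73 to -0.18, all toward U.

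**Figure D3:**
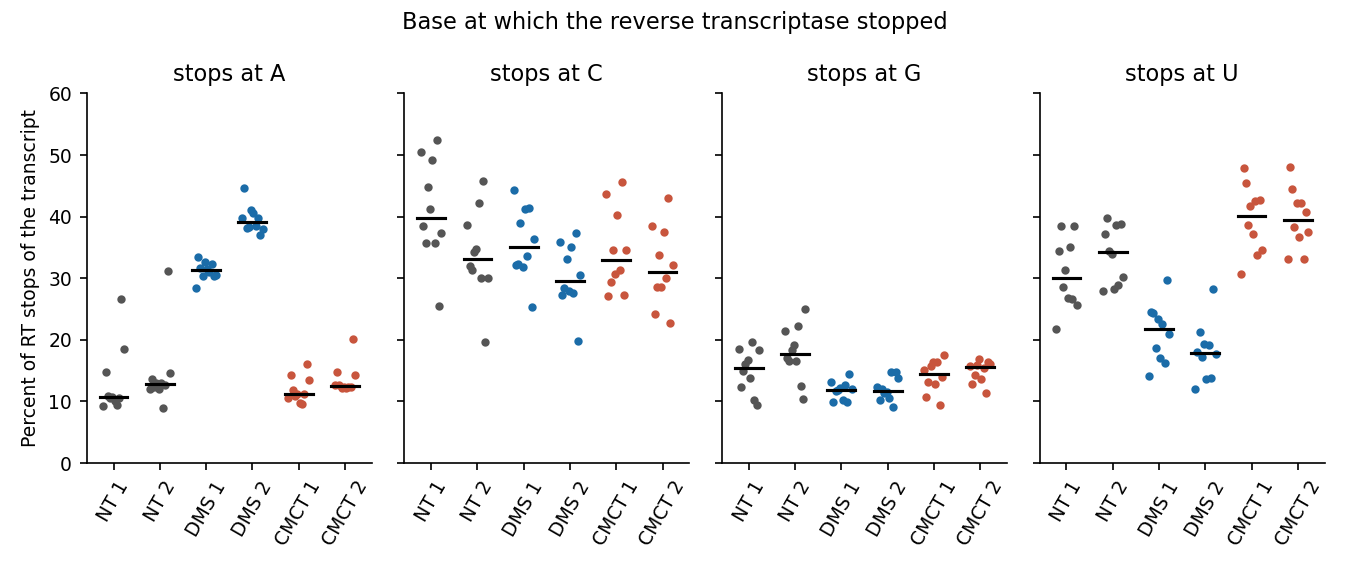
Percent of a transcript's RT stops at A, C, G and U in each library, with 1 point per mRNA and a bar at the median of the 10. The DMS libraries stand highest at A, with medians of 31.3% and 39.1%, and the CMCT libraries highest at U, with medians of 40.1% and 39.5%.

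Single positions showed the base preference more sharply. The most raised position in DMS was an A in 6 mRNAs, a C in 3 and a U in 1, and in CMCT it was a U in 9 and a C in 1. These positions were chosen for their excess, so their values are a description. The A of Aldoa at position 669 of the transcript, in the sequence shown above, had 7 and 7 stops in NT, 203 and 192 in DMS and 9 and 6 in CMCT. The A of Gpi1 at position 249 had 0 and 1, 42 and 42, and 6 and 5. The A of Tpi1 at position 174 had 1 and 1, 59 and 60, and 4 and 3.

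In all of these, both DMS libraries stood far above the other 4. The Tpi1 position is the base just before a start codon: the longer coding isoform used here starts at position 25, and another annotated isoform starts at position 175. Gapdh's A at position 847 had 38 and 30 stops in NT, 538 and 419 in DMS and 65 and 57 in CMCT, but its following bases occur 110 times in the genome. The C of Eno1 at position 1319 had 141 and 71, 317 and 266, and 128 and 75.

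In CMCT the U of Eno1 at position 1617 had 57 and 41 stops in NT, 113 and 91 in DMS and 561 and 498 in CMCT. The U of Gapdh at position 379 had 377 and 355, 294 and 157, and 1311 and 913. The U of Pgam1 at position 253 had 266 and 105, 498 and 204, and 654 and 723, so that here DMS replicate 1 was closer to the CMCT libraries than to NT. The most raised DMS positions of Hk2 and Pfkl, at 5215 and 2944, lie in repeats found 15270 and 16023 times.

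Counting every position with at least 10 stops in both treated replicates and at least 4 times the NT level, scaled to the library total, gave 701 positions in the 10 mRNAs for DMS and 163 for CMCT. Of the 701, 91.3% were A, against 76.5% of the 65507 such positions over all genes. With positions found once, 90.1% of 101 were A, against 85.0% of 12775. Of the 163 for CMCT, 57.7% were U, against 57.6% over all genes. Eno1 had 119 of the DMS positions, Gapdh 115 and Pgk1 106, whereas Hk2 had 1. Depth enters these counts through the minimum of 10 stops. In the DMS libraries Hk2 had 0.670 and 0.577 stops per base and Gapdh 30.5 and 22.9.

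A feature that the choice of genes did not use was shared by these positions: the base that follows. This is the last base that RT copied. Of the 10 most raised positions, 9 in DMS and all 10 in CMCT were followed by an A. Of the 10 most stopped NT positions, 5 were followed by an A, 4 of them a U and 1 a C. Over all positions the next base also went with stop density without treatment. In NT replicate 1, a U followed by A had more stops per base than other U in 10 of the 10 mRNAs, with a median ratio of 6.82, and in NT replicate 2 in 9 of 10, with a median ratio of 6.16. Only 12.4% of the U were followed by A, as the median over the mRNAs, yet they held 50.5% and 47.5% of the stops at U. For a C followed by A the median ratios were 7.17 and 5.01, and all 10 mRNAs lay above 1 in both NT libraries.

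These ratios were as high in the treated libraries, at 6.87 to 10.4 for UA and 5.34 to 7.15 for CA. Hk2 was lowest for UA in NT, at 1.67 and 0.860. An A followed by A had ratios of 0.694 and 1.03 in NT but of 3.18 and 3.34 in DMS, and lay above 1 in 10 of 10 mRNAs there. Over all genes the medians were 5.47 and 4.68 for UA in NT and 2.75 and 2.68 for AA in DMS, so the order is that of the other mRNAs too. At positions found once, 6 of the 8 mRNAs with enough stops lay above 1 for UA in each NT library, with medians of 7.76 and 5.75. These ratios are given without a test.

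Without treatment, 4 of the 10 mRNAs had their most stopped position in the coding region, 3 in the 5′ UTR and 3 in the 3′ UTR. The bases before each of those in the 5′ UTR carried fewer stops than the bases after it. In Eno1 the U at position 287, 112 bases before the start codon, had 1462 and 1039 stops in NT, 487 and 413 in DMS and 1196 and 275 in CMCT. It held 5.34% and 6.71% of the transcript's NT stops. The bases before it carried 1.19 and 0.907 stops per base in NT, and those between it and the start codon 17.8 and 9.32.

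In Gapdh the G at position 167, 74 bases before the start codon, had 927 and 623 stops in NT, 483 and 516 in DMS and 542 and 301 in CMCT. Before it lay 0.193 and 0.205 stops per base in NT and after it 22.8 and 15.9. In Pgam1 the U at position 147 had 566 and 365, 185 and 149, and 350 and 138. The bases before it carried 2.42 and 1.94 stops per base in NT and those after it 14.7 and 8.96. All 3 positions were higher in both NT libraries than in both DMS libraries, but they were chosen as the most stopped in NT, so this is a description. The most stopped leader position of Pfkl, an A at position 56 with 57 and 37 stops in NT, went the other way, with 2.36 and 2.04 stops per base before it and 0.698 and 0.349 after it. In Pgk1 the NT libraries were split at the U at position 106, with more stops per base after it than before it in replicate 1, and 3.37 before it and 3.13 after it in replicate 2. In Gpi1 both had more after the U at position 49 (2.64 and 2.29) than before it (1.51 and 0.884).

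In Tpi1 and Ldha the 5′ UTR as annotated held almost no stops. The transcripts used, those with the longest coding region, start upstream of the stops: the 24 bases of the 5′ UTR of Tpi1 had 0 stops in all 6 libraries, and the 195 bases of Ldha had 12 to 21. The most stopped NT position of Tpi1, a G at position 137, had 388 and 287 stops in NT, 156 and 277 in DMS and 239 and 61 in CMCT, and lies 38 bases before the start codon of the shorter isoform. In Aldoa the transcript used has its start codon at position 110, whereas other annotated isoforms start at position 272. Part of what is counted as coding region of Aldoa below is thus 5′ UTR in those isoforms. Which isoform these cells use was not tested.

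Relative to the coding regions, the 5′ UTRs carried fewer stops in the treated libraries than in NT. Stops per base in the 5′ UTR over the coding region had medians of 0.919 and 1.17 in NT, 0.560 and 0.565 in DMS, and 0.535 and 0.489 in CMCT over the 8 mRNAs other than Tpi1 and Ldha. Pgam1 had 1.47 and 1.80 in NT, 0.688 and 0.784 in DMS and 0.697 and 0.485 in CMCT. Pgk1 had 1.01 and 1.56, 0.544 and 0.546, and 0.459 and 0.493. In both, the NT libraries lay above all 4 treated libraries.

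The limma fit of this ratio was added after the values had been seen. Of the 8 mRNAs with at least 50 stops in both regions in every library, 3 fell in DMS against NT, where 15.8% of 1581 genes fell. They were Pgam1 (by 1.15 ± 0.31, SE, on the log2 scale, limma adjusted p = 0.0461), Pgk1 (by 1.21 ± 0.31, adjusted p = 0.0430) and Pfkl (by 1.73 ± 0.39, adjusted p = 0.0307). In CMCT these 3, Eno1 and Aldoa fell, 5 of 8, by 0.97 to 1.49 (adjusted p from 0.0131 to 0.0334), where 40.1% of all genes fell. The 3 calls in DMS were lost when NT replicate 2, either DMS library or either CMCT library was left out, although the log2 differences then still lay from -1.86 to -0.89. The 5 in CMCT were lost when NT replicate 2 or either CMCT library was left out, and that of Aldoa also without NT replicate 1 (adjusted p = 0.0543). At positions found once, Pfkl and Eno1 fell in both comparisons, 2 of 5 tested, where 10.3% of all genes fell in DMS and 40.5% in CMCT.

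**Figure D4:**
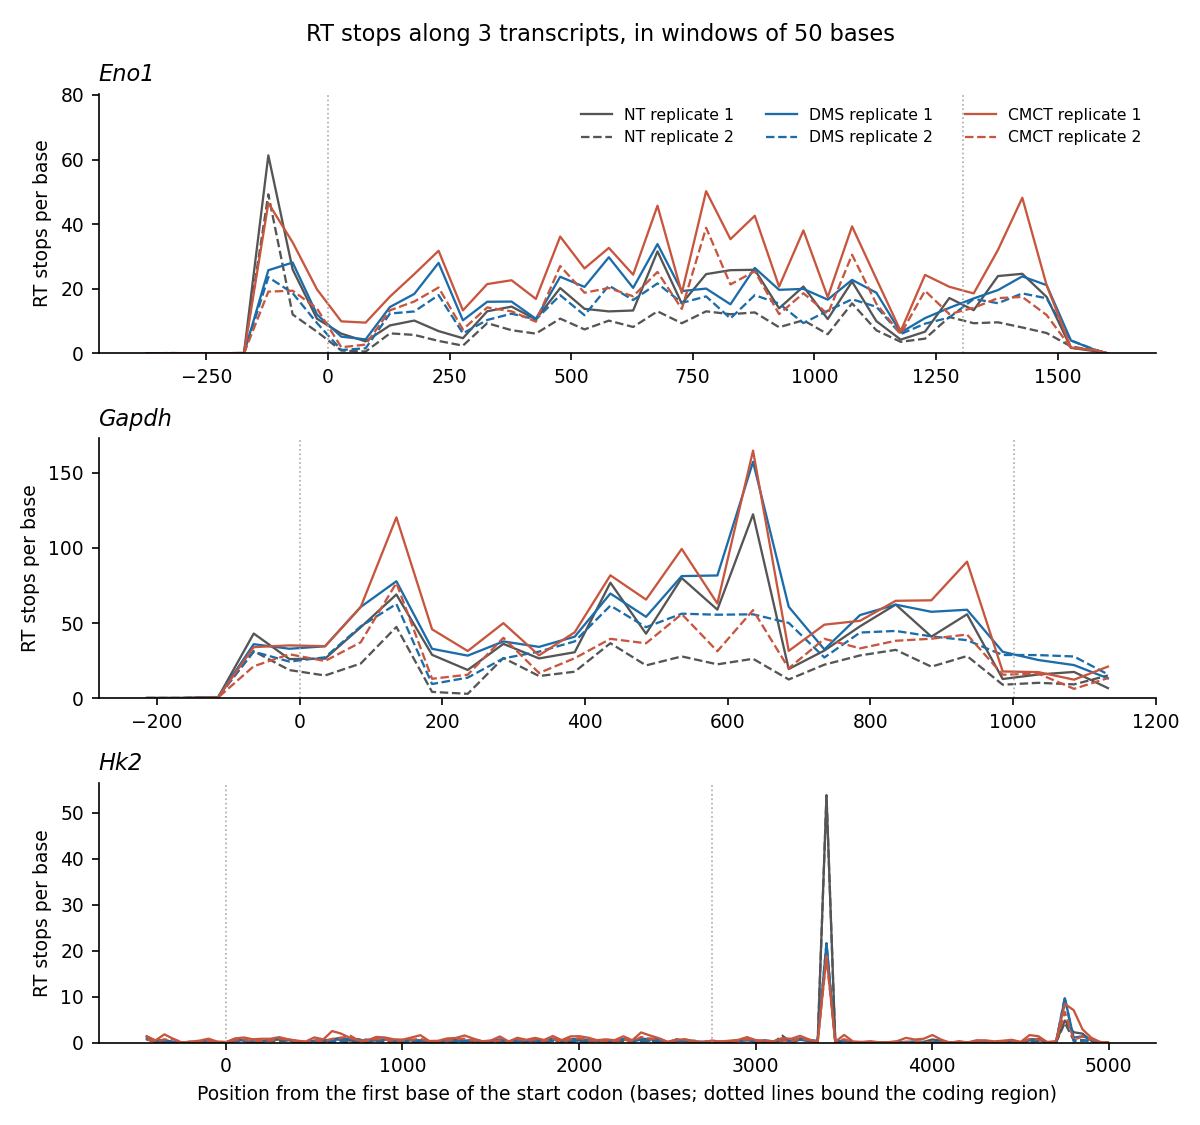
RT stops per base in windows of 50 bases along the transcripts of Eno1, Gapdh and Hk2, from the first base of the start codon, with dotted lines at the ends of the coding region, solid lines for replicate 1 and dashed lines for replicate 2. The bases before the leader stops of Eno1 and Gapdh carry few stops, and in Hk2 the 3′ UTR window with position 3859 rises far above the rest of the transcript in all 6 libraries.

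For the 3′ UTR against the coding region, the medians of the treated and NT libraries lay close together. The median ratio of stops per base was 0.784 and 0.810 in NT, 0.742 and 0.964 in DMS and 0.813 and 0.778 in CMCT. Ldha was above 1 in all 6 libraries, from 1.06 to 1.39. Hk2 had 3.55 and 5.27 in NT, 2.02 and 2.36 in DMS and 1.48 and 1.48 in CMCT, so that its 3 treatments did not overlap.

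None of the 10 passed the limma test in DMS (8.16% of 3297 genes did, 7.07% with a lower ratio), and 1 passed in CMCT (12.1%, and 11.3% with a lower ratio). This was Hk2, which fell by 1.55 ± 0.26 (SE, limma adjusted p = 0.0273) and which had -0.99 in DMS (adjusted p = 0.0713). With replicate number added to the fit as a block, Hk2 passed in DMS too (limma adjusted p = 0.0332), where 701 of 3297 genes passed. At positions found once its differences were -0.07 in CMCT (adjusted p = 0.910) and -0.26 in DMS (adjusted p = 0.602). The CMCT call was also lost when any library but NT replicate 1 was left out (adjusted p from 0.0634 to 0.0991), with log2 differences of -1.26 to -1.55.

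**Figure D5:**
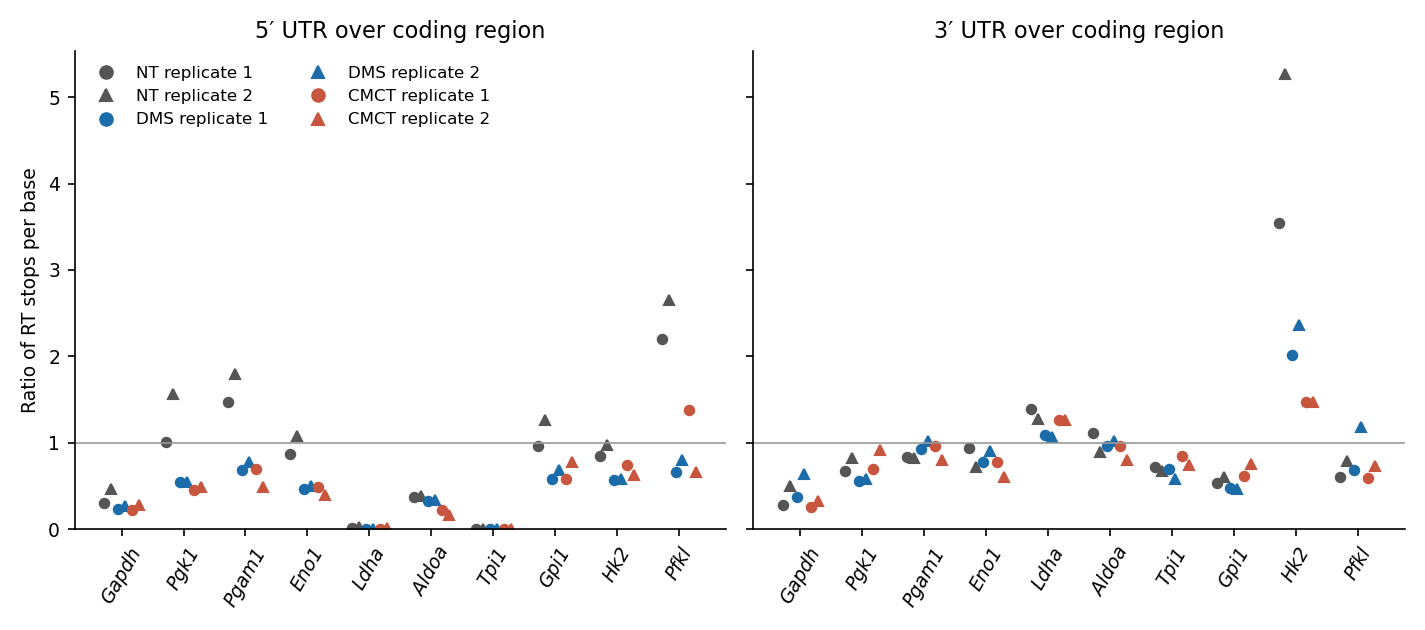
Ratio of RT stops per base in the 5′ UTR (left) and 3′ UTR (right) over the coding region, with 1 point per library. The NT points of Pgk1, Pgam1, Eno1 and Pfkl stand above the DMS points on the left, and Hk2 stands apart on the right, with 3.55 and 5.27 in NT.

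Reactivity was computed per base as the log2 ratio of treated over NT stops, scaled from 0 to 1 within the transcript, with the larger of DMS and CMCT kept. It was set to 0 where the ratio was negative or the base had no treated stop. All 10 mRNAs had at least 1 stop per base with the DMS and CMCT libraries of both replicates summed together, as had 7027 genes in all. Depth was not matched: the median of the 10 was 2.50 to 7.28 stops per base in a library, against 0.655 to 1.09 over all genes. Mean reactivity in the coding region was 0.379 to 0.435, against a median of 0.351 over the other genes. It exceeded that of the 5′ UTR in the 8 mRNAs other than Tpi1 and Ldha, whose 5′ UTRs as annotated carried almost no stops (86.9% of other genes). Much of the 5′ UTR of Eno1 and Gapdh also held few stops. Windows from -397 to -148 in Eno1 had 0 to 0.18 per base, and those from -239 to -90 in Gapdh 0 to 0.74. Their 5′ UTR means, 0.0993 and 0.148, thus rest in part on bases without stops. The mean of the coding region exceeded that of the 3′ UTR in 8 of 10 (90.1% of other genes). The other 2 were Gapdh, with 0.417 in the coding region and 0.469 in the 3′ UTR, and Pgam1, with 0.411 and 0.414.

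In replicate 1 alone these means were 0.425 and 0.428 for Gapdh and 0.410 and 0.412 for Pgam1, and in replicate 2 they were 0.410 and 0.415 for Gapdh, while Pgam1 turned to 0.423 and 0.413 and Aldoa to 0.361 and 0.368. Gapdh turned with a pseudocount of 5 (0.427 and 0.375) and with CMCT alone (0.291 and 0.237). The coding region was the higher in 7 of 10 with DMS alone and in 9 of 10 with CMCT alone, where Ldha was the exception. The reactivities of the replicates had Pearson correlations of 0.665 to 0.875 over windows of 10 bases within the mRNAs, which share the library and the sequence. At single positions the correlations were lower, from 0.438 in Hk2 to 0.647 in Ldha.

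Within the coding region, the first base of the codon had the highest mean reactivity in 9 of the 10 mRNAs, against 44.6% of other genes, which were not matched for depth. With DMS alone this was so in 10 of 10, with CMCT alone in 5 of 10 and with positions found once in 6 of the 7 with values. In Gpi1 the means were 0.480, 0.414 and 0.374 for bases 1, 2 and 3 of the codon, and in Pgk1 0.483, 0.444 and 0.378. Pgam1 was the exception, with 0.441, 0.445 and 0.347. Base composition differed between codon positions. A, the base with the highest mean reactivity in 9 of the 10 (0.395 to 0.635, with U at 0.401 above A at 0.395 in Hk2), made up 26.5% to 32.0% of codon base 1 and 6.59% to 18.0% of codon base 3, against 27.7% and 18.7% for the median gene. It made up 27.9% to 33.8% of codon base 2, more than of base 1 in 9 of 10, all but Gapdh. Its part in the codon pattern was not tested.

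RNA-seq ranked the mRNAs otherwise than RT stops did. Pgam1 was highest, with 152 RPKM (95% Poisson interval 148 to 156), followed by Aldoa with 73.1 (71.0 to 75.3) and Pgk1 with 68.8 (66.6 to 71.2). Eno1 had 46.5, Ldha 37.1, Tpi1 28.2, Gpi1 15.5, Gapdh 13.5, Hk2 13.1 and Pfkl 9.07. The intervals of Gpi1 and Gapdh do not meet (14.8 to 16.3 and 12.5 to 14.6), whereas those of Gapdh and Hk2 overlap (12.5 to 13.7 for Hk2), and they cover counting error only. The median of genes with a protein-coding transcript was 6.13. Exon length covers all isoforms, 5379 bases in Eno1 against 2244 in Pgk1, so the order depends on this length too. Alignments were counted by the midpoint of their genomic span, so one that spans an intron can be missed. Positions across a junction held fewer alignments per base than those found once (0.162 against 2.86 in Aldoa), except in Gapdh and Pgam1.

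The order depended on reads with several places in the genome. Reads listed once made up 1.70% of the alignments of Pgam1, 4.59% of those of Pgk1, 11.0% of Eno1 and 31.7% of Gapdh, but 97.8% of Hk2. With reads listed once alone, Aldoa was highest, at 118, and Pgam1 lowest, at 4.89. These values divide by all exon bases, while 5.37% of the positions of Pgam1 were found once. Gapdh, first in RT stops, had 0.317 RNA-seq alignments per base at positions found more than 20 times and 2.06 at positions found 2 to 20 times. Spearman's rho between RNA-seq and NT stops per base at all positions was 0.576 over the 10 mRNAs with all alignments. It was -0.382 with reads listed once, which were set against stops that keep repeated positions. With positions found once for both it was 0.103 against the NT stops, 0.455 against the DMS stops and 0.430 against the CMCT stops. There Pgam1 had 3 alignments, and 566 and 365 of its 638 and 402 NT stops lay at 1 position.

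The wider pathway gave few calls of its own. Of 29 other genes of glucose use, transporters, further isoforms, regulators and pyruvate dehydrogenase among them, 20 were measured. In RT stops, 2 of the 20 were lower in DMS and 3 in CMCT, and none was higher (12.5% and 13.9% of all genes were lower). The medians of the 20 log2 differences were -0.00025 and 0.037, against 0.0072 and 0.11 over all genes. Pfkp, the platelet-type phosphofructokinase, had 16123 and 14968 stops in NT, 7862 and 7505 in DMS and 9255 and 6725 in CMCT, and fell by 1.49 ± 0.31 (SE, edgeR adjusted p = 0.00375) in DMS and by 1.48 ± 0.31 (adjusted p = 0.00415) in CMCT.

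Pdk1, which inhibits pyruvate dehydrogenase, fell by 1.29 (adjusted p = 0.00744) and by 1.11 (adjusted p = 0.0162), and Pfkfb3, which sets the level of a phosphofructokinase activator, fell by 1.82 in CMCT (adjusted p = 0.00776). Positions found once held 30.2% of the stops of Pfkp, 33.3% of Pdk1 and 15.4% of Pfkfb3. At these positions the 3 genes had log2 differences of -0.26, -0.17 and 0.08 in DMS and of -0.24, 0.08 and 0.08 in CMCT, with adjusted p of 0.353 or more. In the share of stops at A and C, 16 of 19 rose in DMS, with a median log2 odds of 1.07, and 0 passed in CMCT, beside 72.1% and 0.307% of all genes.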

How the data were processed

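CIRS-seq was measured in 6 libraries and RNA-seq in 1. The authors deposited raw RT stop counts per transcript position, without normalization, and RNA-seq alignments (unit: other), both on mm9; the paper states that single-nucleotide variants of E14 were included. The submitters' processing notes name Bowtie 1.0.0 and TopHat2 2.0.6. The authors' summed columns were not used. Transcripts were matched to GENCODE vM1 (26792 of 26827). Per gene, each genomic position was counted once; for bases and regions, the transcript with the longest coding region was used, without the last 25 bases, which carry no stops.

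Stops per gene were tested with edgeR 4.0.16 (TMM, quasi-likelihood), shares and region ratios with limma 3.58.1 (prior 0.5, at least 100 stops, or 50 per region), in 1 fit over 6 libraries, with Benjamini-Hochberg adjustment. Reactivity used a pseudocount of 1 and Winsorising at the 90th percentile. RNA-seq alignments were counted where the midpoint lay in exons of 1 gene. The fits were tested on simulated data. The genes named were the 10 members, the positions most raised per reagent, and called genes of the pathway list; members and lists were chosen with earlier results of these data known.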

Additional observations from a re-analysis of the deposited data

How the results depend on the processing

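Repeated sequence, the 2 libraries per treatment and the choice of transcript limit these results. With positions found once, the fits called 1067 genes in RT stops for DMS and 639 for CMCT (2 members), 113 in the 5′ UTR ratio for DMS (2 members in CMCT), 113 in the A and C share for CMCT, and 0 in the 3′ UTR ratio for either reagent (0 members). Without near-equal replicate counts they called 1806 (0 members) and 2130 in RT stops, 86 in the A and C share for CMCT, and 15 and 14 (0 members) in the 3′ UTR ratio. The longest protein-coding transcript alone gave 1269 (0 members, Hk2 at adjusted p = 0.0750) and 1649. DESeq2 called 5595 genes for DMS and 1 member for CMCT. Counting stops 1 base downstream, the A and C share called 221 genes for DMS (0 members) and 223 for CMCT. That share called 41 genes for CMCT with a prior of 5 and 38 with at least 500 stops, and the 3′ UTR ratio 138 and 206 with at least 200 stops. The 5′ UTR fits, the near-equal positions and the reads listed once were chosen after seeing the data.

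The replicate block called 5616 genes in RT stops for DMS and 5030 for CMCT. It called 513 in the 5′ UTR ratio for DMS (4 members, with Eno1 added at limma adjusted p = 0.0351). In the 3′ UTR ratio for DMS it called 701 (1 member, Hk2, at limma adjusted p = 0.0332), and in the A and C share for CMCT 0. Deviations of equal-numbered libraries correlated at 0.553 (NT and DMS), 0.0101 (NT and CMCT) and -0.107 (DMS and CMCT). Equal-numbered NT and DMS libraries thus deviated together, which the main fits, made without a block, left out of account.

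Leaving out 1 library gave 1719 to 4619 genes in RT stops for DMS (0 to 1 members) and 1600 to 4402 for CMCT, 3132 to 4669 in the A and C share for DMS and 0 for CMCT, 0 to 695 (0 to 1 members) and 0 to 661 (0 to 1 members) in the 3′ UTR ratio, and 0 to 544 (0 to 4 members) and 0 to 859 (0 to 5 members) in the 5′ UTR ratio, for DMS and CMCT in turn.

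Directions that turned were those of Hk2 in RT stops for CMCT (0.35 with positions found once, 0.45 without near-equal counts), Pgam1 for CMCT (0.047 with the longest transcript, 0.019 without near-equal counts, -0.20 to 0.10 with 1 library left out), Pgk1 with positions found once (-0.60 for DMS, -1.19 for CMCT) and the 5′ UTR ratio of Aldoa for DMS (0.029 with positions found once). In reactivity, the order of the 3′ UTR and coding region turned in Gapdh with a pseudocount of 5 and with CMCT alone, in Pgam1 in replicate 2 and with CMCT alone, in Aldoa in replicate 2, with DMS alone and with positions found once, and in Ldha with CMCT alone. Among members given only as a range, 8 of 104 values in the 3′ UTR ratio for CMCT and 9 of 104 for DMS, 15 of 150 in the A and C share for CMCT, and 15 of 91 and 9 of 91 in RT stops for CMCT and DMS changed sign, and 0 changed a call. The cause was not tested.

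The members' median RPKM was 31.1 with alignments in exons of any gene and 19.0 with reads listed once, against 32.6. The median reactivity of the 3′ UTR minus the coding region, -0.0946, became -0.113 with a pseudocount of 5, -0.123 with positions found once, -0.0395 for DMS alone, -0.0669 for CMCT alone, and -0.0965 to -0.0795 with 1 replicate left out.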
